A study of Mus musculus with 29 samples.

Results

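The nuclear genes for the subunits of respiratory complex I were followed through 29 mouse muscle libraries. Members were the protein-coding genes whose symbol begins with Ndufa, Ndufb, Ndufc, Ndufs or Ndufv and a digit, together with Ndufab1, at a mean of at least 1 CPM, the count of a gene scaled to the size of its library. Genes of the Ndufaf series, which encode assembly factors, were not members. The table held 48023 genes, of which 38 met the rule, and all 38 had been kept by the expression filter of every fit. No member had a count of 0 in any library.

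Complex I (NADH:ubiquinone oxidoreductase) takes electrons from NADH, passes them along a chain of iron-sulfur clusters to ubiquinone, and pumps protons across the inner mitochondrial membrane. Its matrix arm holds the N module, which oxidises NADH, and the Q module, which reduces ubiquinone, while the membrane arm has a proximal and a distal part that pump protons. The catalytic core is made of 7 subunits encoded in the nucleus, among them Ndufv1, Ndufs1 and Ndufs7, and 7 encoded in mitochondrial DNA. The remaining nuclear subunits are accessory: they surround the core and are needed for its assembly or stability. In skeletal muscle the complex is the main entry of NADH electrons into the respiratory chain, and its amount follows the oxidative capacity of the fibres.

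By module, 3 members were core and 7 accessory subunits of the N module, 4 were core and 2 accessory subunits of the Q module, 9 belonged to the proximal and 11 to the distal membrane arm. Ndufa4, which is now counted as a subunit of complex IV, and its paralogue Ndufa4l2 met the rule by name and were kept as 2 members outside the modules.

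The libraries came from tibialis anterior (TA) muscle of male C57BL/6J mice of 2 to 3 months (strain and age as labelled) from 2 lines. In the p110α line exon 1 of Pik3ca and in the p110β line exon 2 of Pik3cb, the genes for the catalytic subunits of PI3-kinase, was flanked by loxP sites. Knockouts (M-p110αKO and M-p110βKO) carried Cre under the human skeletal actin promoter, which is active in muscle fibres and not in the other cells of the tissue, and controls, labelled WT, had floxed alleles and no Cre by the study's methods. By the study's supplement the lines also differed in genetic background. Each genotype was sampled fed or after a day without food. The 8 groups were fed controls (n = 4), fed M-p110αKO (n = 4), fasted controls (n = 4) and fasted M-p110αKO (n = 3) of the p110α line, and fed controls (n = 3), fed M-p110βKO (n = 4), fasted controls (n = 3) and fasted M-p110βKO (n = 4) of the p110β line. Libraries are named by their running number, from 1 to 29 in that order of groups, and values in a group are given in that order.

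The promoters of 3 members are shown because these genes, Ndufa8, Ndufb10 and Ndufv3, fell on fasting in both genotypes of both lines. Each sequence runs from 250 bases before to 50 bases after the RefSeq start, 5′ to 3′ on the strand of the gene (RefSeq, GRCm38.p6). Capitals mark GGGCGG, the letters bound by SP factors, and GCATGCG, the inner letters of the nuclear respiratory factor NRF1, on either strand.
Ndufa8, chr2:36049289-36049588, minus strand: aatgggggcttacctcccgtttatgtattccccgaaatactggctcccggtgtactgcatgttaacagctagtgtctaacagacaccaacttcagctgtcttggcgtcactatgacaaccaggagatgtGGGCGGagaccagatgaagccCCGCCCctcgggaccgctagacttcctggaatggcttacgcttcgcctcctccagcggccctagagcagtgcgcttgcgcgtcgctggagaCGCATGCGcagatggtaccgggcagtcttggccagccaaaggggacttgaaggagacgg
Ndufb10, chr17:24724374-24724673, minus strand: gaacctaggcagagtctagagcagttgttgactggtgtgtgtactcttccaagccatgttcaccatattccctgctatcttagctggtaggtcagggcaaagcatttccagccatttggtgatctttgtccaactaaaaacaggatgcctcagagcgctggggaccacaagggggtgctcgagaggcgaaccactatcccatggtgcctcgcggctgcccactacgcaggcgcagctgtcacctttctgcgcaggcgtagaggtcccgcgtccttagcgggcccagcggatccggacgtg
Ndufv3, chr17:31519865-31520164, plus strand: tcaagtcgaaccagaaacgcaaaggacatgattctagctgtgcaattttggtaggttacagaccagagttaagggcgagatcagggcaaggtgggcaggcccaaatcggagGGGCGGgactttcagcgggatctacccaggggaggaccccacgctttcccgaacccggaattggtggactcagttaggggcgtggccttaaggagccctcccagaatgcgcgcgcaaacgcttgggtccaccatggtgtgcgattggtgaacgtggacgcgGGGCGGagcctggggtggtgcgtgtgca
The Ndufa8 promoter holds CGCATGCG just before the start, in which GCATGCG is read on both strands because these letters overlap their own reverse complement. That of Ndufb10 holds none of the motifs searched, and that of Ndufv3 only the SP letters. No searched motif was therefore common to all 3 in this window.

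The table of RefSeq promoters held 35 promoters of 33 members. Of these, 16 promoters (45.7%) held GGGCGG on either strand, against 35.7% of all 32851 promoters, and 3 (8.57%) held GCATGCG, against 3.58%. The ETS letters CCGGAAG, bound by GABPA, were in 4 (11.4%, against 8.86%) and the letters AAGGTCA of estrogen-related receptors in 3 (8.57%, against 4.72%). The letters AAGATGG of YY1 were in 7 (20.0%, against 6.34%). Member promoters had a median GC content of 59.0%, against 52.7% over all promoters, which bears on how often such letters occur. The 7 windows with the YY1 letters (capitals) are shown since their place is alike: all lie on the strand of the gene, and the first capital is 22 to 38 bases after the start.
Ndufa3, chr7:3617385-3617411, plus strand: cgccaagaacAAGATGGccgggagtaa
Ndufa9, chr6:126849099-126849125, minus strand: attgtgggagAAGATGGcggccgccgt
Ndufb8, chr19:44555393-44555414, minus strand: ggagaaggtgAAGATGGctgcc
Ndufc1, chr3:51408917-51408943, minus strand: cctgcggaacAAGATGGcgccgtccgt
Ndufs4, chr13:114388045-114388069, minus strand: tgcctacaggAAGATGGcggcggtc
Ndufs6, chr13:73328433-73328459, minus strand: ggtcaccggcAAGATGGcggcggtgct
Ndufs7, chr10:80249463-80249489, plus strand: ggccgaggccAAGATGGcggcgctggc
In each window the capitals contain ATG followed by G. A match describes letters only, and binding was not measured.

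Assigned reads per library ranged from 5351935 to 11653239 (median 7828636), and the 38 members took 0.455–0.779% of them. Markers of skeletal muscle fibres were high in every library (6 of 6 detected, summed level 33700–77700 CPM), while adipocyte markers summed to 146–150 CPM in 2 of the 3 fasted controls of the p110β line (libraries 23 and 24) and to 0.123–19.8 CPM in the other 27. The 3 fasted M-p110αKO libraries read 1.65–1.76 in mean log2 CPM over 23 genes that were higher in the p110β line, where other libraries of the p110α line read 0.11–0.81 and those of the p110β line 2.52–3.72. Over 15 genes that were lower in the p110β line they read 3.07–3.35. Other libraries of the p110α line read 2.91–4.06 there and those of the p110β line 0.11–0.77. No fit of fasted M-p110αKO can be made without these 3. Counts are summed over all exons of a gene, so they do not check a deletion of 1 exon: Pik3ca read 127 ± 19.7 CPM (SD) in controls and 136 ± 23.4 in M-p110αKO when fed (log2 fold change 0.1 ± 0.13 SE, adjusted p = 0.805), and Pik3cb read 10.3 ± 0.364 in fed controls and 10.2 ± 0.996 in fed M-p110βKO (0 ± 0.13 SE, adjusted p = 0.995). Nothing in the labels ties libraries to separate litters or days, so p values measure the spread between these animals.

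Levels are given below as CPM scaled with TMM factors over all 29 libraries. Per kilobase of exon, the highest member was Ndufa2 (412 CPM per kb over all libraries), an N module accessory subunit, and Ndufa4 (279), Ndufb9 (203) and Ndufb11 (196) were also high. The lowest were Ndufa4l2 (1.69), Ndufs5 (4.18), Ndufb4 (6.83), Ndufv3 (10.8) and Ndufab1 (11.1), which encodes the mitochondrial acyl carrier protein. Members of the modules thus ran from 4.18 to 412 CPM per kb of annotated exon, and part of that range rests on exon annotation, since Ndufab1 has 6883 annotated exon bases and the median member 1532.

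Over the 8 groups the members did not move as 1 block, but most had their extremes in the same groups. The highest group mean was that of fed controls of the p110β line for 19 members, of fed M-p110αKO for 11, of fed M-p110βKO for 6 and of fed controls of the p110α line for 2. The lowest was that of fasted controls of the p110α line for 20 members and of fasted M-p110αKO for 13. The 38 highest means were thus all in fed groups, and 36 of the 38 lowest were in fasted groups. Relative to each member's own mean over groups, the median member stood at 0.36 (log2) in fed controls and 0.29 in fed M-p110βKO of the p110β line, and at −0.38 in fasted controls of the p110α line and −0.29 in fasted M-p110αKO. The widest ratio of highest to lowest group mean was that of Ndufs5 (6.49-fold), an intermembrane space subunit, followed by Ndufa4l2 (3.49-fold) and Ndufs6 (3.08-fold).

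**Figure D1:**
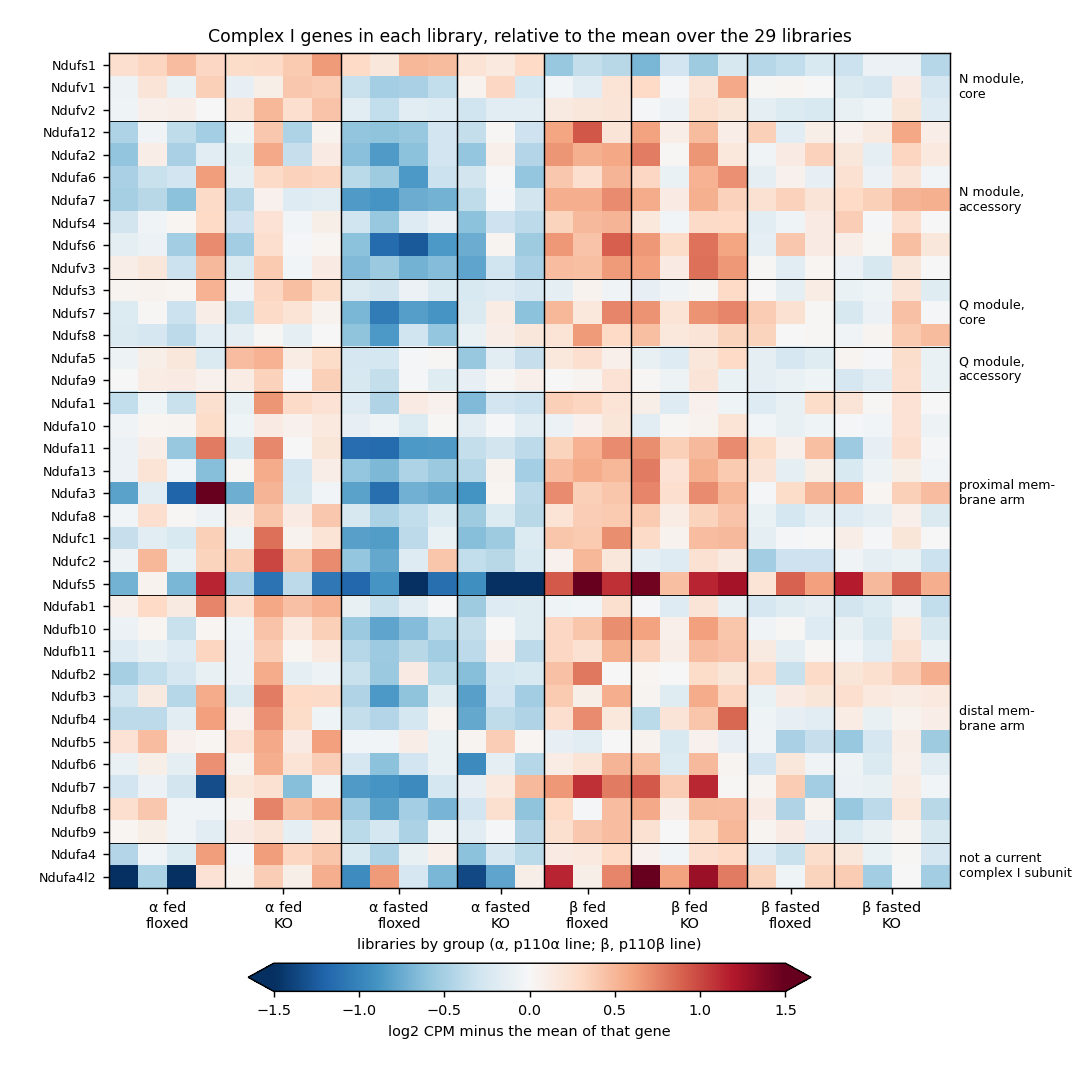
Level of the members (rows, grouped by module) in each of the 29 libraries (columns, grouped by line, feeding state and genotype), as log2 CPM minus the mean of that gene over all libraries; red is above and blue below the gene's mean. Fasted controls of the p110α line are blue in most rows, fed groups of the p110β line are red in most rows except Ndufs1, and Ndufs5 is red in every library of the p110β line.

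The share of all counts taken by the 38 members followed feeding state. In controls of the p110α line it was 0.598 ± 0.038% (SD) fed against 0.492 ± 0.034% fasted, and in M-p110αKO 0.694 ± 0.076% against 0.56 ± 0.053%. In controls of the p110β line it was 0.701 ± 0.026% fed against 0.578 ± 0.019% fasted, and in M-p110βKO 0.673 ± 0.068% against 0.56 ± 0.062%. The fed mean exceeded the fasted mean in each genotype of each line. In whole muscle, fewer fibres of a type and less RNA per fibre cannot be told apart.

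A day without food was followed by lower levels of complex I genes in all 4 fasting comparisons, which have no library in common. In controls of the p110α line 16 of 38 members fell and 0 rose at an adjusted p under 0.05 (edgeR), where 14.7% of all 12433 genes tested fell and 15.4% rose. In M-p110αKO 16 fell and 0 rose, beside 9.91% of all genes lower and 11.6% higher. In controls of the p110β line 11 fell and 0 rose, beside 12.4% of 12249 genes lower and 14.5% higher, and in M-p110βKO 13 fell and 0 rose, beside 18.9% lower and 19% higher. The median log2 fold change of the 38 was −0.37, −0.44, −0.34 and −0.25 in this order, and the median of all genes lay between −0.02 and 0.02. Estimates below 0 were found for 35, 36, 34 and 34 of the 38, against 49.7%, 50.3%, 52.1% and 51.9% of all genes.

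**Figure D2:**
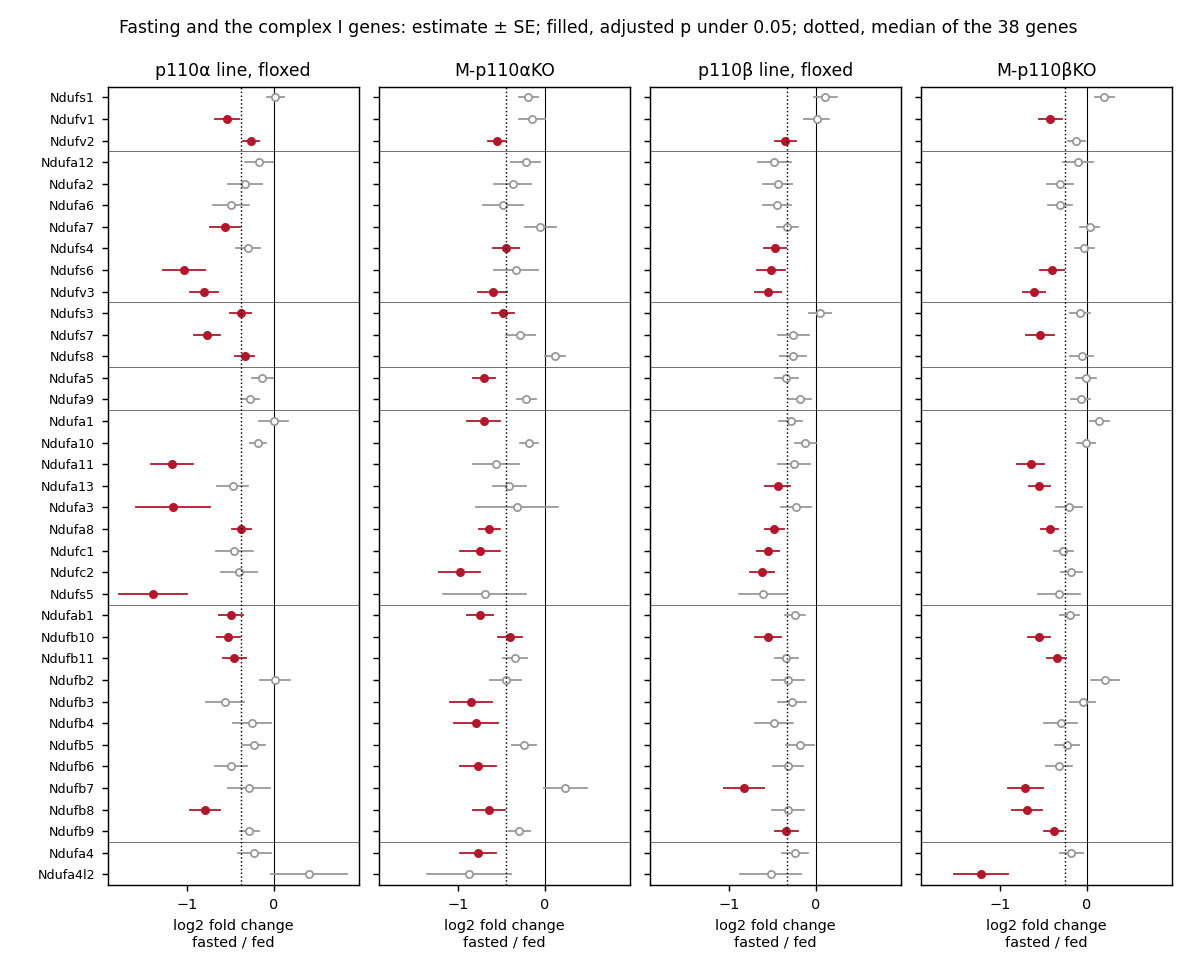
Log2 fold change of fasted over fed for the members (rows, grouped by module) in the 4 fasting comparisons (panels), as estimate ± SE; filled points passed the adjusted p threshold, and the dotted line is the median of the 38. Nearly all points lie left of 0 in every panel, with 16, 16, 11 and 13 filled, and Ndufs1 lies near 0.

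Members called lower in all 4 comparisons were Ndufa8, Ndufb10 and Ndufv3, where 3.24% of the 12000 genes tested in both lines were. A further 3 members were called in 3 comparisons (Ndufb8, Ndufs6 and Ndufv2), 12 in 2, 11 in 1 and 9 in none, beside 69.4% of all genes in none. Estimates below 0 in all 4 were found for 28 members, against 25% of all genes.

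Ndufv3 (ENSMUSG00000024038, chr17:31520115-31531331, plus strand, GRCm38) encodes a small accessory subunit of the N module next to the site of NADH oxidation. Among controls of the p110α line, fed animals read 35.3, 36.9, 26.3 and 46.02 CPM and fasted animals 20.7, 22.4, 20.1 and 20.9 (−0.8 ± 0.16 SE, adjusted p = 0.00117). In M-p110αKO it read 28.3, 43.1, 32.1 and 35.7 when fed and 18.97, 26.7 and 23.4 when fasted (−0.6 ± 0.17 SE, adjusted p = 0.0214). Every fasted animal lay below every fed one in both genotypes, and the 4 fasted controls lay close together. In the p110β line it read 45.3, 45.1 and 51.01 in fed and 33.3, 29.3 and 33.5 in fasted controls (−0.55 ± 0.15 SE, adjusted p = 0.0117). Fed M-p110βKO read 50.3, 35.9, 58.3 and 51.5 and fasted M-p110βKO 30.8, 27.8, 36.96 and 32.8 (−0.61 ± 0.13 SE, adjusted p = 0.00134). The groups were apart in controls, while in M-p110βKO 1 fed animal lay within the fasted range.

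Ndufa8 (ENSMUSG00000026895, chr2:36036326-36049406, minus strand) encodes an accessory subunit on the intermembrane space side of the proximal arm. It read 80.5, 98.8, 83.9 and 78.5 CPM in fed and 70.5, 59.6, 64.2 and 72.1 in fasted controls of the p110α line (−0.37 ± 0.11 SE, adjusted p = 0.0201). It read 88.9, 110.3, 90.01 and 109.6 in fed and 57.3, 72.1 and 62.00 in fasted M-p110αKO (−0.64 ± 0.12 SE, adjusted p = 0.00136). In the p110β line fed controls read 95.5, 107 and 108 and fasted controls 77.7, 68.9 and 74.8 (−0.48 ± 0.11 SE, adjusted p = 0.00455). No fasted value reached the lowest fed value in these 3 comparisons. Fed M-p110βKO read 109, 89.5, 105 and 112 and fasted M-p110βKO 72.3, 75.7, 87.5 and 71.3 (−0.43 ± 0.099 SE, adjusted p = 0.00219), again without overlap.

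Ndufb10 (ENSMUSG00000040048, chr17:24722060-24724478, minus strand) encodes a disulfide-bonded accessory subunit of the distal arm. Fed controls of the p110α line read 135, 146, 114 and 147 CPM and fasted controls 97.2, 83.1, 91.1 and 109 (−0.52 ± 0.13 SE, adjusted p = 0.00484). Fed M-p110αKO read 137, 192, 158 and 184 and fasted M-p110αKO 112, 143 and 127 (−0.4 ± 0.14 SE, adjusted p = 0.044). The control groups were apart and the knockout groups overlapped by 1 animal on each side. Fed controls of the p110β line read 177, 192 and 232 and fasted controls 138, 145 and 125 (−0.55 ± 0.15 SE, adjusted p = 0.0103). Fed M-p110βKO read 219, 151, 220.0 and 192 and fasted M-p110βKO 132, 122, 158 and 121 (−0.55 ± 0.13 SE, adjusted p = 0.00263). Here too the controls were apart, and 1 fed M-p110βKO animal lay below the highest fasted one.

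The 3 core subunits of the N module were called in different numbers of fasting comparisons, and the difference between them was not tested. Ndufv1, which binds the flavin that accepts electrons from NADH, read 196, 238, 194 and 266 CPM in fed and 164, 145, 148 and 160.1 in fasted controls of the p110α line (−0.54 ± 0.14 SE, adjusted p = 0.00759). In M-p110βKO it read 254, 204, 238 and 309 when fed and 179, 175, 226 and 174 when fasted (−0.42 ± 0.13 SE, adjusted p = 0.0139). It was not called in M-p110αKO (−0.15 ± 0.15) or in controls of the p110β line (0.01 ± 0.14). Ndufv2, an iron-sulfur subunit, read 363, 449, 378 and 427 in fed and 258, 284 and 285 in fasted M-p110αKO (−0.55 ± 0.099 SE, adjusted p = 0.000901), with every fasted animal below every fed one. It also fell in controls of the p110α line, from 305, 335, 339.9 and 318 to 282, 247, 283 and 279 (−0.26 ± 0.091 SE, adjusted p = 0.0402), and in those of the p110β line, from 349.8, 358 and 363 to 287, 275 and 272 (−0.35 ± 0.12 SE, adjusted p = 0.0316). Its estimate in M-p110βKO was −0.12 ± 0.1. Ndufs1, the largest core subunit and carrier of several iron-sulfur clusters, was called in none: log2 fold changes were 0.02 ± 0.1 and −0.19 ± 0.11 in the p110α line and 0.11 ± 0.13 and 0.2 ± 0.11 in the p110β line. It was the member with an estimate below 0 in the fewest comparisons (1 of 4).

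Among the 7 accessory subunits of the N module, 3, 2, 3 and 2 fell (controls and knockouts of the p110α line, then of the p110β line). Of all genes 14.7%, 9.91%, 12.4% and 18.9% fell in this order, shares that also stand beside the module counts below. Counts in single modules are small, and some were near those shares. Ndufs6, a zinc-binding subunit that joins late in assembly, fell in controls of the p110α line (−1.03 ± 0.24 SE, adjusted p = 0.00333), controls of the p110β line (−0.52 ± 0.16 SE, adjusted p = 0.0247) and M-p110βKO (−0.4 ± 0.14 SE, adjusted p = 0.0335). Ndufs4, which is attached to the peripheral arm and whose loss causes Leigh syndrome, fell in M-p110αKO (−0.44 ± 0.15 SE, adjusted p = 0.0477) and in controls of the p110β line (−0.47 ± 0.13 SE, adjusted p = 0.0106). Ndufa7 fell in controls of the p110α line (−0.56 ± 0.17 SE, adjusted p = 0.0204). Ndufa2, Ndufa6 and Ndufa12 were called in no fasting comparison.

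In the Q module core 3, 1, 0 and 1 of 4 fell. Ndufs7, which carries the last iron-sulfur cluster before ubiquinone, read 159, 184, 146 and 195 CPM in fed and 114, 87.96, 103 and 98.7 in fasted controls of the p110α line (−0.77 ± 0.15 SE, adjusted p = 0.00112), a ratio of 0.585 with no overlap. In M-p110βKO it read 292, 209.7, 291 and 302 when fed and 155, 172, 248 and 179 when fasted (−0.54 ± 0.16 SE, adjusted p = 0.0109), with 1 fed animal inside the fasted range. Ndufs8, which carries the preceding clusters, read 80.04, 78.3, 70.7 and 82.4 in fed and 60.9, 51.1, 75.7 and 62.3 in fasted controls of the p110α line (−0.33 ± 0.11 SE, adjusted p = 0.0324), where 1 fasted animal lay inside the fed range. Ndufs3 fell in controls (−0.38 ± 0.12 SE, adjusted p = 0.0224) and knockouts (−0.48 ± 0.13 SE, adjusted p = 0.0154) of the p110α line, from 102, 102, 101 and 142 to 84.6, 81.5, 92.5 and 85.5 and from 95.2, 122, 135 and 119 to 84.05, 86.4 and 82.8. Of the 2 accessory subunits Ndufa5 was called in M-p110αKO, from 194, 203, 153 and 171 to 95.6, 125 and 111 (−0.7 ± 0.13 SE, adjusted p = 0.00122), and Ndufa9 was called in none.

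In the proximal arm 4, 4, 4 and 3 of 9 members fell. Ndufa11, which encodes a membrane-embedded subunit, read 11.3, 12.9, 8.18 and 20.8 CPM in fed and 5.48, 5.41, 6.64 and 6.71 in fasted controls of the p110α line (−1.17 ± 0.24 SE, adjusted p = 0.0015). Fed values spread widely, and the fasted ones lay between 5.41 and 6.71. It also fell in M-p110βKO (−0.65 ± 0.16 SE, adjusted p = 0.00319). Ndufa13, a subunit that spans the membrane and reaches into the matrix arm, read 372, 252, 314 and 284 in fed and 185, 206, 231 and 211 in fasted M-p110βKO (−0.55 ± 0.12 SE, adjusted p = 0.00125), and fell in controls of the p110β line (−0.44 ± 0.14 SE, adjusted p = 0.0223). The membrane subunits encoded by Ndufc1 and Ndufc2 fell together in M-p110αKO (−0.75 ± 0.23 SE, adjusted p = 0.0265 and −0.98 ± 0.24 SE, adjusted p = 0.00723) and in controls of the p110β line. In the latter Ndufc2 read 68.8, 93.5 and 74.2 when fed and 46.1, 53.2 and 53.3 when fasted (−0.62 ± 0.14 SE, adjusted p = 0.00246), and Ndufc1 read 69.9, 68.7 and 84.9 and 47.1, 51.4 and 52.7 (−0.55 ± 0.13 SE, adjusted p = 0.00312).

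In the distal arm 4, 6, 3 and 5 of 11 members fell. Ndufb8, whose protein the study used as its marker of complex I, read 552, 612, 447 and 448 CPM in fed and 317, 266, 325 and 286 in fasted controls of the p110α line (−0.79 ± 0.17 SE, adjusted p = 0.00197), without overlap. In M-p110αKO it read 474, 777, 633 and 678 and 379.6, 548 and 304 (−0.64 ± 0.18 SE, adjusted p = 0.0198), and in M-p110βKO 687, 497, 644 and 635 and 312, 352, 518 and 347 (−0.69 ± 0.17 SE, adjusted p = 0.00318). Both knockouts had 1 fasted animal inside the fed range. Controls of the p110β line read 568, 454 and 637 when fed and 502, 338 and 479.5 when fasted, which did not pass (−0.32 ± 0.19 SE, adjusted p = 0.227). Ndufab1, the acyl carrier protein, read 89.3, 112, 102 and 107 in fed and 51.6, 65.7 and 66.00 in fasted M-p110αKO (−0.75 ± 0.15 SE, adjusted p = 0.00207) and also fell in the matching controls (−0.49 ± 0.14 SE, adjusted p = 0.0116). Ndufb7, an intermembrane space subunit, fell in both genotypes of the p110β line (−0.83 ± 0.23 SE, adjusted p = 0.0129 and −0.71 ± 0.2 SE, adjusted p = 0.0101) and in neither of the p110α line (−0.28 ± 0.24 and 0.24 ± 0.25). The difference between lines in the effect of fasting was not tested.

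Core and accessory subunits were also counted apart, beside the 14.7%, 9.91%, 12.4% and 18.9% of all genes that fell. The core count in controls of the p110β line, 1 of 7, was near that share. Of the 7 nuclear core subunits 5, 2, 1 and 2 fell, with medians of −0.33, −0.19, 0.01 and −0.12. Of the 29 accessory subunits 11, 13, 10 and 10 fell, with medians of −0.45, −0.45, −0.34 and −0.30. These counts are a description, and the difference between the classes was not tested. Outside the modules, Ndufa4 fell in M-p110αKO (−0.77 ± 0.21 SE, adjusted p = 0.0143) and Ndufa4l2 in M-p110βKO (−1.22 ± 0.31 SE, adjusted p = 0.00458). The level of Ndufa4l2 was low, from 1.1 to 4.6 CPM in fed and fasted M-p110βKO.

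Some library properties moved with feeding state. The summed level of the 6 fibre markers was 47500–62500 CPM in fed and 33700–39000 CPM in fasted controls of the p110α line, and 65300–76200 and 44600–58400 CPM in those of the p110β line. It was 48700–58000 CPM in fed and 44800–48300 CPM in fasted M-p110αKO, a smaller shift, and 72200–77700 and 47600–56400 CPM in M-p110βKO. The part of these markers in the fall of the complex I genes was not tested. Without libraries 23 and 24, which held adipocyte markers and leave 1 fasted control in the p110β line, 1 of 38 members fell there instead of 11, at a median log2 fold change of −0.33 instead of −0.34. Without 1 library at a time the counts were 10 without library 4 or 10 for controls of the p110α line, 6 without library 13 and 9 without library 6 for M-p110αKO, and 7 without library 17 or 24 for controls of the p110β line.

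Loss of p110α in fed muscle changed no complex I gene past the threshold. Of the 38 members 0 passed, beside 0.418% of all genes lower and 0.193% higher. With p under 0.05 before adjustment, 7 were higher and 1 lower (5.17% and 6.53% of all genes), and DESeq2 called 1 and limma-voom 0. The median log2 fold change was 0.19, and 7 of 38 estimates lay below 0, against 49.6% of all genes. The member closest to a call was Ndufv2, which read 305, 335, 339.9 and 318 CPM in controls and 363, 449, 378 and 427 in M-p110αKO (0.32 ± 0.091 SE, adjusted p = 0.141, with a 95% interval of 0.14 to 0.49). Every knockout lay above every control. Ndufb8 read 552, 612, 447 and 448 in controls and 474, 777, 633 and 678 in M-p110αKO (0.31 ± 0.17 SE, adjusted p = 0.49, interval −0.02 to 0.64), with 1 knockout inside the control range. Ndufs1 read 626, 662, 728 and 654 and 641, 644, 691 and 822 (0.07 ± 0.1 SE, adjusted p = 0.863, interval −0.14 to 0.27). The 1 member lower at an unadjusted p under 0.05 was Ndufs5, at −0.98 ± 0.37 SE, adjusted p = 0.285. Its levels were low (1.73, 2.92, 1.75 and 6.24 CPM in controls and 2.01, 1.31, 2.14 and 1.33 in M-p110αKO), with the highest control value in library 4.

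In fasted muscle 3 of 38 members were higher in M-p110αKO than in controls and 0 lower, beside 3.02% of all genes higher and 3.51% lower. The median log2 fold change was 0.09. Ndufs8 read 60.9, 51.1, 75.7 and 62.3 CPM in controls and 86.4, 99.3 and 104 in M-p110αKO, with no overlap (adjusted p = 0.00566). Ndufs7 read 114, 87.96, 103 and 98.7 and 157, 198 and 119 (0.65 ± 0.16 SE, adjusted p = 0.0259), and Ndufb7 63.4, 62.1, 58.9 and 95.2 and 105, 127 and 160.3 (0.91 ± 0.25 SE, adjusted p = 0.0397). Both were apart, Ndufs7 by little. Groups did not overlap for 8 members, all higher in M-p110αKO, where 9.21% of all genes were apart in that direction. Ndufv1 (0.48 ± 0.15 SE, adjusted p = 0.0612) and Ndufb10 (0.43 ± 0.13 SE, adjusted p = 0.0654) were apart without passing. Ndufa8 did not pass (−0.06 ± 0.12 SE, adjusted p = 0.833, interval −0.29 to 0.18) and neither did Ndufv3 (0.13 ± 0.18 SE, adjusted p = 0.703, interval −0.21 to 0.48).

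**Figure D3:**
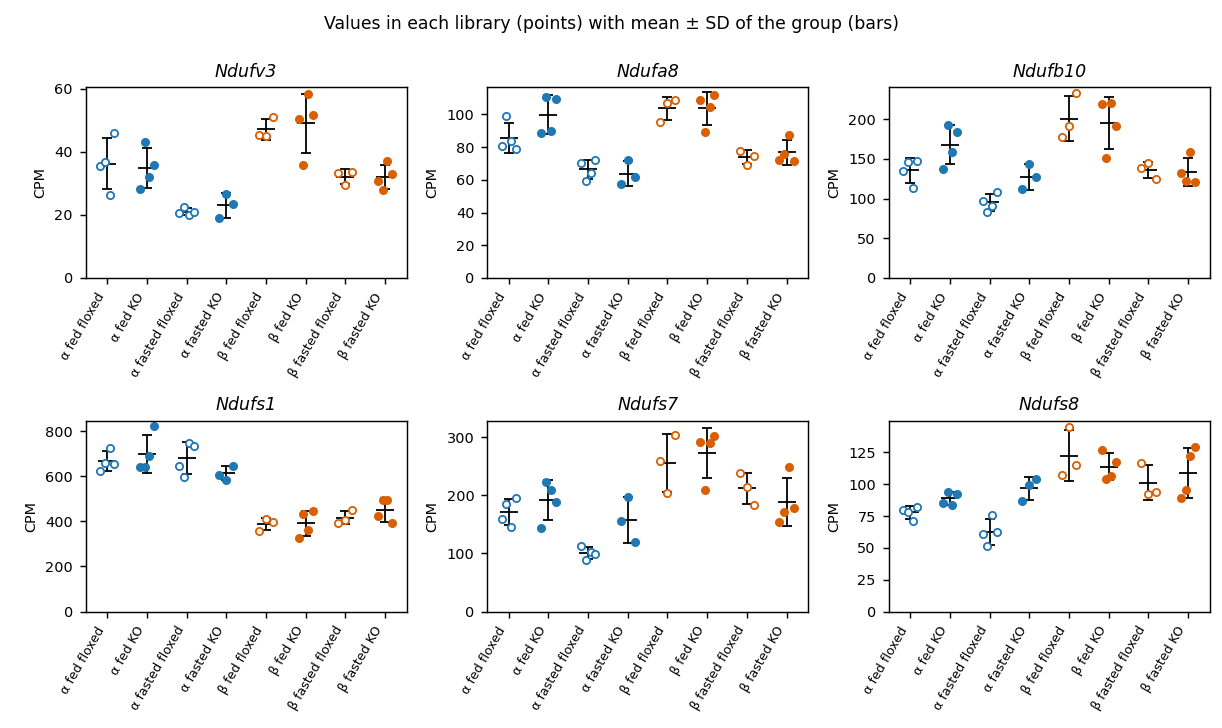
CPM of Ndufv3, Ndufa8, Ndufb10, Ndufs1, Ndufs7 and Ndufs8 in each library (points; open, controls; filled, knockouts; blue, p110α line; orange, p110β line) with the mean and SD of each of the 8 groups (bars). Ndufv3, Ndufa8 and Ndufb10 are lower in fasted groups, Ndufs1 is lower in every group of the p110β line, and Ndufs7 and Ndufs8 are higher in fasted M-p110αKO than in fasted controls of the p110α line.

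Averaged over fed and fasted animals, 4 members were higher in M-p110αKO and 0 lower, beside 2.26% of all genes higher and 3.23% lower: Ndufs8 (0.41 ± 0.08 SE, adjusted p = 0.00649), Ndufb10 (0.37 ± 0.092 SE, adjusted p = 0.0276), Ndufb7 (0.64 ± 0.17 SE, adjusted p = 0.0373) and Ndufs7 (0.41 ± 0.11 SE, adjusted p = 0.0412). For Ndufb10 the control values were 135, 146, 114 and 147 fed and 97.2, 83.1, 91.1 and 109 fasted, and those of M-p110αKO 137, 192, 158 and 184 fed and 112, 143 and 127 fasted. The genotype by feeding interaction was called for 0 of 38, beside 0.273% of all genes lower and 0.209% higher. With p under 0.05 before adjustment it was positive for 2 members and negative for 3 (7.44% and 7.51% of all genes). The counts of called members rested on single libraries: without library 10, 11 or 14 the fasted count was 1 instead of 3 and the count over both states 1 instead of 4. Without library 4 they were 5 and 7. The count over both states was also 1 without library 3 or 6 and 2 without library 8 or 9. The fasted M-p110αKO libraries stand apart from their line in the genes higher in the p110β line, though not in those lower in it, as given above. They cannot be left out.

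With loss of p110β no member passed the threshold in either state. In fed muscle 0 of 38 passed, beside 0% of all genes in either direction, and 2 were lower and 0 higher at an unadjusted p under 0.05 (4.43% and 4.22% of all genes). In fasted muscle 0 passed, beside 0.294% of all genes higher and 0.596% lower, with 0 at an unadjusted p under 0.05 (6.16% and 7.06% of all genes). DESeq2 and limma-voom also called 0 in both. The medians were −0.04 and 0.05. For Ndufa8 the 95% interval of the log2 fold change was −0.2 to 0.22 when fed and −0.16 to 0.26 when fasted, and for Ndufs1 −0.22 to 0.26 and −0.13 to 0.35. For Ndufs7 it was −0.22 to 0.44 and −0.5 to 0.16, and for Ndufb7 −0.59 to 0.25 and −0.47 to 0.38. For Ndufs8 it was −0.37 to 0.19 when fed and −0.18 to 0.39 when fasted. The estimate for Ndufs8 in fasted M-p110αKO (0.64) is that of the called member of lowest adjusted p there. It was smaller with the GC and length offsets given below, so these intervals do not set the 2 knockouts apart. Ndufa1 had the lowest p when fed (−0.31 ± 0.12 SE, adjusted p = 0.439), with all knockouts below all controls. Averaged over both states 0 passed, beside 0.171% of all genes higher and 0.163% lower.

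The effects of the knockouts were compared directly in a fit of all 29 libraries. The fed effect of p110α loss exceeded that of p110β loss past the threshold for 0 of 38 members, beside 0.0392% of all genes, and fell short of it for 0, beside 0.094%. The median difference was 0.24, and at an unadjusted p under 0.05 the difference was positive for 7 members and negative for 0 (5.43% and 5.5% of all genes). The fasted effect differed for 0, beside 2.19% of all genes higher and 2.69% lower, with a median of 0.12. Ndufs7 was the closest (0.82 ± 0.25 SE, adjusted p = 0.0529, interval 0.33 to 1.31), followed by Ndufa11 (1.01 ± 0.33 SE, adjusted p = 0.0708) and Ndufv1 (0.63 ± 0.21 SE, adjusted p = 0.0778). DESeq2 called 3. Without library 28 edgeR also called 3, without library 4 or 15 it called 2, and without library 5, 17, 20 or 25 it called 1. In the full set of libraries edgeR called 1 with RLE or with upper-quartile factors and 5 with no filter beyond 1 read, which also called 3 for the fed difference, so these counts depended on scaling and filter.

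The lines were also compared with each other. In fed controls, 15 members were higher and 1 lower in the p110β line, beside 9.33% of all 12760 genes higher and 10.9% lower. The median log2 difference was 0.37. Of the core subunits Ndufs8 was higher, with 80.04, 78.3, 70.7 and 82.4 CPM in the p110α line and 108, 145 and 115 in the p110β line (0.65 ± 0.13 SE, adjusted p = 0.0012), and so was Ndufs7 (0.58 ± 0.18 SE, adjusted p = 0.0199). Ndufs1 was the exception, with 626, 662, 728 and 654 in the p110α line and 357, 412 and 397 in the p110β line (−0.78 ± 0.12 SE, adjusted p = 6.75e-05), and it had the lowest adjusted p of all members. Its lower level extended over all 14 libraries of the p110β line, which read 329 to 497 CPM, while the 15 of the p110α line read 585 to 822.

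Of the N module accessory subunits 4 of 7 were higher in the p110β line. Ndufa7 read 19.8, 20.9, 18.1 and 33.99 CPM in the p110α and 40.7, 40.5 and 45.5 in the p110β line (0.85 ± 0.15 SE, adjusted p = 0.000368). Ndufa12 read 85.5, 113, 90.6 and 82.8 and 178, 226 and 135 (0.95 ± 0.18 SE, adjusted p = 0.000698). Both sets were apart. Ndufa2 (0.85 ± 0.2 SE, adjusted p = 0.00366) and Ndufs4 (0.43 ± 0.14 SE, adjusted p = 0.0262) were the other two. In the distal arm Ndufb7 read 93.7, 107, 94.3 and 45.5 and 179.8, 244 and 196 (1.28 ± 0.25 SE, adjusted p = 0.000896), and Ndufb10, Ndufb2, Ndufb9 and Ndufb11 were higher as well. In the proximal arm Ndufa13, Ndufc1 and Ndufs5 were higher, and outside the modules Ndufa4l2 was. Without library 18 the line count was 8 and without library 17 it was 10, instead of 16. Floxed gene, genetic background and the animals' origin differ together between the lines and cannot be told apart.

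GC content and length were examined because both can change counts between libraries. Members had a median exon GC content of 51.9% (43–60.4%), at the 60.7 percentile of the genes tested in the p110α line, and a median exon length of 1532 bases (419–8086), at the 8.68 percentile. They are short genes of ordinary composition. Each library was first described by the Spearman correlation, over all genes, of its log2 CPM relative to the mean library with GC content. This ran from −0.47 to −0.33 in fasted controls of the p110α line, from −0.29 to 0.03 in its fed controls, from −0.27 to 0.13 in fasted M-p110αKO and from 0.25 to 0.43 in fed M-p110βKO. Low complex I levels in fasted controls of the p110α line therefore went with libraries in which GC-rich genes read low.

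**Figure D4:**
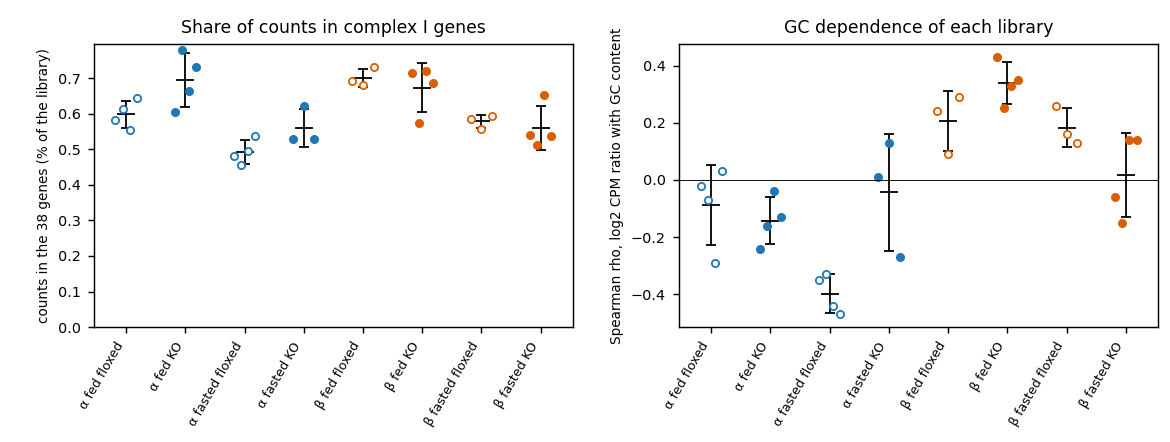
Left, percent of each library's counts in the 38 members; right, Spearman correlation of each library's log2 CPM ratio to the mean library with exon GC content, over all genes tested. Points are libraries (open, controls; filled, knockouts; blue, p110α line; orange, p110β line), and bars are the mean and SD. Fasted controls of the p110α line are lowest in both panels.

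The log2 fold changes followed GC content to different degrees. Over all genes the Spearman correlation was 0.44 for fasted M-p110αKO against controls, −0.3 for fasting in controls and 0.06 for fasting in M-p110αKO of the p110α line, −0.03 and −0.28 for fasting in controls and M-p110βKO, and 0.27 for the line difference. Over the 38 members these were 0.56, −0.36, 0.36, −0.12, −0.69 and 0.34, a description across genes that share libraries. In the same order, the correlation with exon length over all genes was −0.18, 0.23, 0.19, 0.18, 0.2 and −0.28. Over the members it was 0.1, 0.25, 0.4, 0.33, 0.14 and −0.32. Shorter genes thus tended to read lower in each fasting comparison and higher in the p110β line. In fasted M-p110αKO the called members Ndufs7, Ndufs8 and Ndufb7 had GC contents of 58.8%, 56.8% and 54.4%. Ndufs1, which stood against the others between the lines, had 44.4% and the longest exons (8086 bases).

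Offsets for a smooth function of GC content and exon length were then added. On fasting 11 of 38 members were called lower in controls and 14 in knockouts of the p110α line, 7 in controls and 6 in knockouts of the p110β line, with 0 higher. Medians were −0.28, −0.33, −0.22 and −0.17. Shares of all genes called with the offsets were not computed, for these counts or those below. Without offsets 14.7%, 9.91%, 12.4% and 18.9% of all genes fell, so a fall beyond that of all genes is not shown by these counts. Ndufv3 was the member called in all 4 with the offsets. Ndufa8 and Ndufb10 were called in 2 each, and 23 members had estimates below 0 in all 4. The calls in M-p110αKO ended: 0 of 38 passed in fasted muscle and 0 over both states, where Ndufs8 was 0.36 ± 0.13 SE, adjusted p = 0.145, Ndufs7 0.35 ± 0.13 SE, adjusted p = 0.149 and Ndufb7 0.79 ± 0.27 SE, adjusted p = 0.125 when fasted. Between the lines 7 members were higher and 3 lower with the offsets, and the median fell from 0.37 to 0.08. Ndufs1 stayed lower (−0.65 ± 0.11 SE, adjusted p = 0.000164), while Ndufs8 did not pass (0.31 ± 0.13 SE, adjusted p = 0.111).

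**Figure D5:**
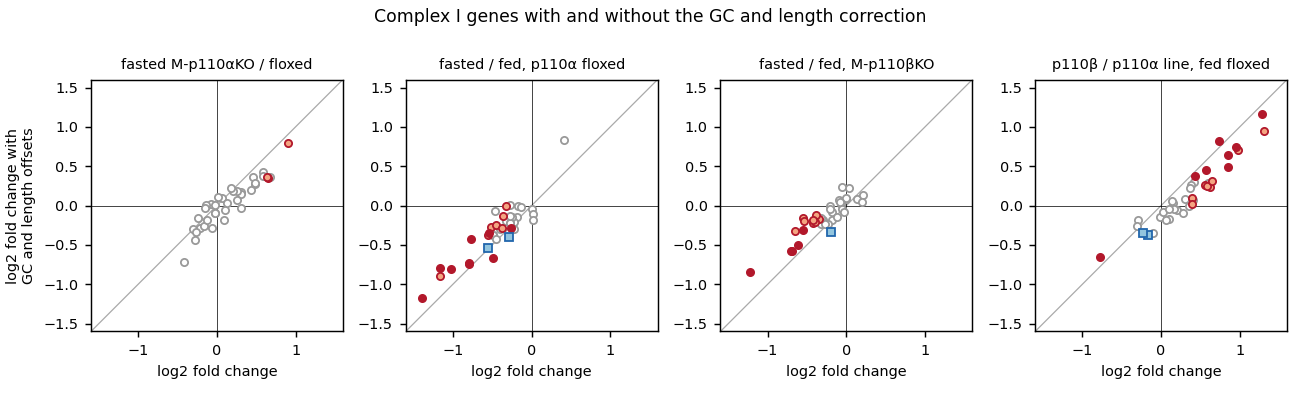
Log2 fold change of each member without (x axis) and with (y axis) the GC and length offsets in 4 comparisons; the diagonal marks equality. Dark red points passed both ways, pale red circles only without, blue squares only with the offsets, and grey circles neither. Red calls turn pale for all 3 members in fasted M-p110αKO, 9 of the 16 fasting calls in controls of the p110α line stay dark, and the cloud of the line comparison lies below the diagonal.

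Genes that build complex I were examined on fasting as well. Of 17 assembly factors 7 fell in controls and 5 in knockouts of the p110α line, 3 in controls and 3 in knockouts of the p110β line, where 14.7%, 9.91%, 12.4% and 18.9% of all genes fell, so that the share in the p110β line was near that of all genes. Nubpl, which delivers iron-sulfur clusters, rose in M-p110βKO (0.6 ± 0.21 SE, adjusted p = 0.0303), a call that ended without library 19, 22, 26, 28 or 29. Medians were −0.34, −0.31, −0.24 and −0.20. Tmem126b, part of the complex that assembles the membrane arm, fell in all 4 and read 32.1, 37.4, 34.5 and 39.96 CPM in fed and 23.4, 20.9, 28.6 and 26.1 in fasted controls of the p110α line (−0.55 ± 0.12 SE, adjusted p = 0.00182). In controls of the p110β line it read 29.2, 35.95 and 34.1 and 20.1, 22.1 and 20.5 (−0.65 ± 0.12 SE, adjusted p = 0.00079). Ndufaf5, which modifies Ndufs7, also fell in all 4, with −0.78 ± 0.13 SE, adjusted p = 0.000353 in M-p110αKO. In M-p110βKO the calls of both ended without library 29, that of Tmem126b also without library 20 and that of Ndufaf5 without library 22, and in controls of the p110β line that of Ndufaf5 ended without library 16, 18, 23, 24 or 25 (adjusted p up to 0.11). With p110α loss 0 of 17 passed when fed (0.193% of all genes higher, 0.418% lower) or when fasted (3.02% and 3.51%). Averaged over both states Timmdc1 was called lower (−0.3), which ended without any 1 of 7 libraries. The interaction was called for Ndufaf1 (−0.64) and ended without any 1 of 14 of the 15 libraries. Of 17, 0 passed with p110β loss, beside 0% of all genes when fed and 0.294% higher and 0.596% lower when fasted. Dmac1 was higher in the p110β line (0.86 ± 0.15 SE, adjusted p = 0.000216).

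The 7 mitochondrially encoded subunits were counted in the same fits. On fasting 2 fell in controls (mt-Nd3 and mt-Nd4l) and 5 in knockouts of the p110α line, 2 in controls of the p110β line (mt-Nd1 and mt-Nd2) and 0 in M-p110βKO, beside the same 14.7%, 9.91%, 12.4% and 18.9% of all genes. The call of mt-Nd4l rested on library 4: fed controls read 3.67, 1.77, 3.12 and 36.5 CPM and fasted controls 2.07, 2.19, 3.06 and 1.97, and without that library the log2 fold change was −0.32 ± 0.61 SE, adjusted p = 0.738. Of the 5 in M-p110αKO, the calls of mt-Nd2 and mt-Nd5 ended without library 13 (adjusted p = 0.061 and 0.181), and that of mt-Nd5 also without 6 other single libraries. Without libraries 23 and 24 neither mt-Nd1 (−0.46 ± 0.17 SE, adjusted p = 0.0798) nor mt-Nd2 (−0.12 ± 0.15 SE, adjusted p = 0.643) passed in controls of the p110β line, and mt-Nd2 was also lost without 5 single libraries. In fasted M-p110αKO mt-Nd4 was lower than in fasted controls (−0.91 ± 0.15 SE, adjusted p = 0.00223), in the comparison where 3 nuclear members were higher. There mt-Nd6 was also called lower (−0.42), which ended without any 1 of 11 libraries. Over both states mt-Nd4 was called lower (−0.34), which ended without any 1 of 13. The fasted knockout effects (p110α minus p110β) were called to differ for mt-Nd4, mt-Nd2 (−0.8), mt-Nd5 (−0.86) and mt-Nd6 (−0.83). The last 3 calls ended without library 24, among others. The interaction was called for mt-Nd4 (−1.14 ± 0.2 SE, adjusted p = 0.0334), and ended without any 1 of 6 libraries (adjusted p up to 0.0731, without library 1). Between the lines mt-Nd1 and mt-Nd3 were called, and mt-Nd3 differed most. Fed controls read 3004, 2594, 3312 and 2915 CPM in the p110α line and 59.4, 57.9 and 34.1 in the p110β line (−5.87 ± 1.4 SE, adjusted p = 0.00355). The 14 animals of the p110β line fell into separate levels that crossed the groups. Fed M-p110βKO read 3688, 43.7, 3374 and 44.1, fasted controls 25.97, 19.9 and 33.6 and fasted M-p110βKO 47.3, 2799, 36.7 and 51.9, so that 3 animals read at the level of the p110α line. Some of these genes overlap each other and have copies in nuclear DNA, and the libraries were made with an mRNA kit, so these values are less certain than those of the nuclear genes.

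Regulators of nuclear mitochondrial genes changed in both directions on fasting, with 3 of 13 up and 2 down in controls and 3 up and 2 down in knockouts of the p110α line, 6 up and 3 down in controls and 9 up and 2 down in knockouts of the p110β line. Of all genes 15.4% rose and 14.7% fell, 11.6% and 9.91%, 14.5% and 12.4%, and 19% and 18.9% in this order, so that 2 of 13 down was near the share of all genes. Esrra, which encodes the estrogen-related receptor ERRα, fell in all 4. It read 63.5, 62.2, 58.8 and 68.9 CPM in fed and 36.7, 31.1, 32.95 and 30.7 in fasted controls of the p110α line (−0.96 ± 0.11 SE, adjusted p = 7.55e-06), and 78.2, 68.4, 70.6 and 75.4 in fed and 31.6, 53.7, 54.8 and 45.6 in fasted M-p110βKO (−0.65 ± 0.15 SE, adjusted p = 0.00233). Its other calls were less firm: that in M-p110αKO ended without any 1 of 7 libraries (adjusted p up to 0.175, without library 15) and that in controls of the p110β line without any 1 of 10 (adjusted p up to 0.165, without library 25). Ppargc1b, the coactivator PGC-1β, fell in 3 comparisons, by the most in controls of the p110β line (−1.45 ± 0.27 SE, adjusted p = 0.000571; −2.2 ± 0.41 SE, adjusted p = 0.00138 without libraries 23 and 24). Ppargc1a, the coactivator PGC-1α, rose in both genotypes of the p110β line (0.93 ± 0.16 SE, adjusted p = 0.00032 in controls). Fasted controls read 104, 109.6 and 66.5 CPM, the higher values being those of libraries 23 and 24, and without these the log2 fold change was 0.44 ± 0.18 SE, adjusted p = 0.0977. Nrf1 rose in all 4, from 0.36 to 0.54, and its calls ended without library 2 or 10 in controls and 5 or 13 in knockouts of the p110α line, without libraries 23 and 24 in controls of the p110β line and without library 20 in M-p110βKO. In fasted muscle Esrra was higher in M-p110αKO than in controls (0.57 ± 0.12 SE, adjusted p = 0.0104), and with the GC and length offsets it did not pass (0.37 ± 0.1 SE, adjusted p = 0.0589), nor without library 14 (0.42 ± 0.12 SE, adjusted p = 0.0843). In fasted M-p110βKO Esrrg was higher (0.82 ± 0.16 SE, adjusted p = 0.0187), but not without libraries 23 and 24 (0.53 ± 0.22 SE, adjusted p = 0.617) or without library 23, 24 or 26. Between the lines 4 regulators were lower and 0 higher in fed controls of the p110β line, Esrrg (−0.94 ± 0.15 SE, adjusted p = 8.77e-05), Ppara (−1.75 ± 0.35 SE, adjusted p = 0.0011), Ppargc1a (−0.54 ± 0.17 SE, adjusted p = 0.0215) and Pprc1 (−0.44 ± 0.14 SE, adjusted p = 0.0224). The calls of Ppargc1a ended without library 3 or 16 and those of Pprc1 without library 1, 4, 16 or 17. With p110α loss averaged over fed and fasted animals, Ppargc1a was called higher (log2 fold change 0.44). That call ended without library 2, 11 or 13. For the difference of the fasted knockout effects (p110α minus p110β), Ppargc1a (0.94), Esrra (0.84) and Esrrg were called. There the call of Ppargc1a ended without library 13, 23 or 24 and that of Esrra without library 14 or 23.

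Some members share sequence with other genes, so their counts are less certain. Exons of 17 members overlap another annotated gene on either strand, and for 6 the overlap exceeds 10% of the member's exon bases: Ndufb6 with Smim27 (39%), Ndufa13 with Tssk6 (30%), Ndufb9 with Gm49356 (19.5%), Ndufb11 with Rbm10 (12.9%), Ndufb5 with Mrpl47 (12.3%) and Ndufa2 with Tmco6 (11.5%). The strand used in counting is not given in the sources used here. Near-identical matches in another annotated gene (at least 95% identity over at least 200 bases, either strand) were found for 11 members. For Ndufa13 (375 bases, 0.0328 CPM) and Ndufb6 (257 bases, 1.75 CPM) the match has the length and level of the overlap with Tssk6 and Smim27. It is thus that overlap and not a separate copy. The match of Ndufb9 (202 bases) has nearly the length of its overlap with Gm49356 (201 bases). Ndufa12 has 1 copy at 14.3 CPM that matches over 221 bases at 99.5%, and Ndufs5 1 copy at 1.6 CPM at 99.4% over 319 bases against 3.6 CPM for the gene itself. Matching genes of the other members (Ndufa13, Ndufab1, Ndufb3, Ndufb4, Ndufb6, Ndufb9, Ndufb11, Ndufs3 and Ndufs6), each called lower in at least 1 fasting comparison, summed to at most 1.75 CPM, the level of Smim27. Those of Ndufb3 and Ndufb9 have no row in the count table. For Ndufa8, Ndufb10, Ndufv3, Ndufs7, Ndufs8 and Ndufb7 no such copy and no exon overlap was found.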

How the data were processed

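According to the labels and the submitters' processing notes, mRNA libraries were aligned to GRCm38 by STAR, and featureCounts (Subread) then summed reads over each gene. Versions and strand setting are not stated there. What the authors deposited are raw counts of 48023 genes, and IDs that lack a symbol hold 0.0292% of them. From these, each line was fitted with 1 coefficient per group in edgeR 4.0.16 (R 4.3.3), with filterByExpr (minimum count 10, total 15), TMM factors and the quasi-likelihood F test. Contrasts between lines used all 29 libraries. P values were adjusted by the Benjamini-Hochberg method across every gene in the fit (threshold 0.05), and 95% intervals are 1.96 SE on either side. GENCODE M21 gave symbols, the GC content and the exon lengths, and BLAST 2.17.0 the near copies. Simulated data stood for fasting in controls of the p110α line, then of the p110β line, and the line comparison (12244, 12043 and 12485 genes). In each, 67 genes changed 1.5-fold, 67 changed 2-fold and 66 changed 4-fold. In this order the edgeR fit recovered 29.9%, 14.9% and 25.4% of 1.5-fold changes and 89.4%, 87.9% and 95.5% of 4-fold changes, so that small changes were often missed there. Far fewer genes changed than were called on fasting. Recovery depends on that share, so these rates need not hold for the real comparisons. No 2 libraries of a group agreed within sampling noise (chi-square per degree of freedom 3.92–31 over 39 pairs). Alternatives were RLE and upper-quartile factors, no filter beyond 1 read, DESeq2 1.42.0, limma-voom (limma 3.58.1), offsets from splines of 5 degrees of freedom on GC content and length, no mitochondrially encoded genes, all libraries or only the compared groups in 1 fit, and each library left out. The fit without libraries 23 and 24, and the calls of other listed genes without single libraries, were added after seeing the data. Values in every library are given for core subunits (1 is not reported here), Ndufb8 and, per comparison, up to 4 called members of lowest adjusted p in each direction. The members and lists were chosen with earlier results of these data known.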

Additional observations from a re-analysis of the deposited data

Results flagged for a closer look

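Of 105 sets of 4 libraries of 1 group, 7 had 1 library far from the other 3 by Dixon's criterion, where chance gives about 1 in 20. In fed controls of the p110α line Ndufs3 read 141.8 CPM in library 4 and 100.9–102.4 in the others. In fasted controls of that line library 12 was high for Ndufa12 (96.87 CPM, others 77.41–79.59) and Ndufb7 (95.19, others 58.86–63.43), and library 10 was low for Ndufv2 (246.7, others 278.8–282.7). In fed M-p110βKO Ndufs7 read 209.7 CPM in library 20 and 290.6–302.5 in the others. In fasted M-p110βKO library 28 was high for Ndufa12 (176.4 CPM, others 123.4–129.0) and for Ndufv1 (226.4, others 173.8–178.9).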

How the results depend on the processing

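Of the 79 called values of members, over the fasting, M-p110αKO and line comparisons, 0 reversed under the alternatives run. The calls kept their side of the threshold for 78 of 79 with RLE factors, 79 with upper-quartile factors, 73 with no filter beyond 1 read, 78 with DESeq2, 76 with limma-voom, 78 without mitochondrially encoded genes, and 43 with the GC content and length offsets. Of 94 medians over the members 1 moved beyond the replicate spread, that of the line difference with the offsets (0.37 to 0.08). With the offsets the number of members called was 0 for fasted M-p110αKO against controls and 0 over both states, 7 and 6 for fasting in controls and M-p110βKO, and 10 for the line difference. With no filter it was 1 for fed M-p110αKO, 8 for fasted, 7 over both states, 4 for the interaction, and 3 and 5 for the fed and fasted difference between the knockouts, and DESeq2 gave 1, 6 and 3 for fed and fasted M-p110αKO and the fasted difference. In fasted M-p110αKO a fit of all libraries gave 5 and one of the compared groups alone 6. With upper-quartile factors 18 members fell on fasting in controls of the p110β line and the fasted difference was called for 1, as it was with RLE factors. Without libraries 23 and 24 the fasting count in those controls was 1, where the remaining fasted control is assumed to vary like the other groups. With each library left out in turn the count ran from 1 to 5 for fasted M-p110αKO, 1 to 7 over both states, 10 to 18 and 6 to 18 for fasting in controls and M-p110αKO, 7 to 15 and 10 to 17 for fasting in controls and M-p110βKO, 8 to 22 for the line difference and 0 to 3 for the fasted difference between knockouts. It stayed at 0 for fed M-p110αKO, the interaction, the 3 contrasts of M-p110βKO and the fed difference. The cause of these changes was not tested. No paired analysis was possible because the labels number the animals through the whole series, so that the groups share no replicate number.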
